A study of Mus musculus with 12 samples.

Results

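The 10 genes described here are 8 matrix metalloproteinases (MMPs) and 2 of their tissue inhibitors (TIMPs), taken as the rows of a raw count table whose Ensembl identifiers map to Mmp2, Mmp3, Mmp9, Mmp10, Mmp11, Mmp12, Mmp13, Mmp14, Timp1 and Timp3. They are 10 of 55573 rows, and all 10 were among the 19174 genes with enough counts to be tested. The set was chosen by earlier results of the same libraries, in which Mmp12 was seen to fall with vitamin B12 and Mmp3 to fall with induction. Those values are therefore given as descriptions with no test, and the counts of members past a threshold leave out Mmp3 in comparisons of induction and Mmp12 in comparisons of B12, which leaves 9, unless it is said that they are included.

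The libraries were made from RNA of cultured fibroblasts (MEFs), the connective tissue cells grown out of mouse embryos, here E13.5 embryos of strain C57BL/6. The cells carry a cassette of Oct4, Sox2, Klf4 and Myc (OSKM) that doxycycline switches on and that can turn fibroblasts into pluripotent stem cells. All cells, controls included, were kept in medium for pluripotent stem cells for 72 h before harvest. The study asked how B12 alters transcription early in this reprogramming. The group MEF had neither doxycycline nor added B12, MEF+B12 had B12 at 2 µM, OSKM had doxycycline, and OSKM+B12 had both. The dose of doxycycline is 1 µg/ml in the labels, while the study's methods give a far higher one. Each group held 3 libraries, 1 from each of clones 1, 2 and 3, and a clone is the culture of 1 embryo. Because doxycycline reached none of the uninduced cells, effects of the drug itself and of the factors cannot be told apart.

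MMPs are zinc-dependent proteases that cut collagens, fibronectin, elastin and other proteins of the extracellular matrix. Most are secreted as inactive precursors, whereas Mmp14 stays in the cell membrane, and TIMPs bind the active enzymes and block them. Fibroblasts are a main source of Mmp2, Mmp3, Mmp14 and TIMPs, while Mmp9 and Mmp12 are known from macrophages and Mmp9 also from osteoclasts and neutrophils.

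The libraries held 56971244 to 79236795 counted read pairs. Levels are given as CPM, counts scaled to a common library size. Among 1519 pseudogenes averaging 2 CPM or more, the OSKM library of clone 1 had 120 that differed more than 2-fold from the other 3 libraries of its clone. Its SD of these log2 differences was 0.556, against 0.114 to 0.247 in the other 11 libraries, and results are given below with and without it. Pou5f1, the Oct4 gene, was at most 0.468 CPM in the 6 uninduced libraries, 18.5 to 20.7 CPM after induction in clones 1 and 2, and at most 2.86 CPM after induction in clone 3. The 11 fibroblast markers summed to between 94223 and 149381 CPM. The 11 macrophage markers were also present, at a sum of 1273 to 3268 CPM, while all 6 neutrophil markers stayed under 1 CPM in every library. The year in the library titles differs between clone 1 and clones 2 and 3, so that year and clone 1 cannot be told apart, and values from clones 2 and 3 alone stand in for a comparison within 1 year.

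The members differed greatly in their level per exon length, measured as FPKM (CPM per kilobase of the union of all annotated exons). Mmp2, a gelatinase, had the highest median over the 12 libraries, 468 FPKM, and was above Mmp14, the membrane-type protease that activates the Mmp2 precursor, in 12 of 12 libraries. This order came from the exon lengths, 3371 bases for Mmp2 and 5960 for Mmp14. Before the division Mmp14 had more counts in every library, such as 128155 against 111577 in MEF of clone 3. Mmp14 had a median of 299 FPKM, and the stromelysin Mmp3 followed with 237 FPKM. Their ranges overlapped, and Mmp14 was above Mmp3 in 8 of 12 libraries. The inhibitor Timp1 had a median of 192 FPKM and its range did not overlap that of Timp3, the inhibitor that binds to the matrix, at 74.7 FPKM. The collagenase Mmp13 (35.5 FPKM), the stromelysin Mmp11 (25.5 FPKM) and the gelatinase Mmp9 (18.6 FPKM) had overlapping ranges, and Mmp9 spread most widely of these, from 3.95 to 44.6 FPKM. Mmp10, the stromelysin closest to Mmp3, had a median of 4.42 FPKM. Mmp12, the macrophage elastase, had the lowest, 0.817 FPKM, in a range of 0.407 to 1.87 FPKM that did not overlap any other member. Its exon length is 7237 bases, against 1722 for Mmp10, and in CPM these ranges overlapped, at 2.94 to 13.6 and 3.93 to 16.5. In clone 1 Mmp12 was above Mmp10 in CPM in every group.

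**Figure D1:**
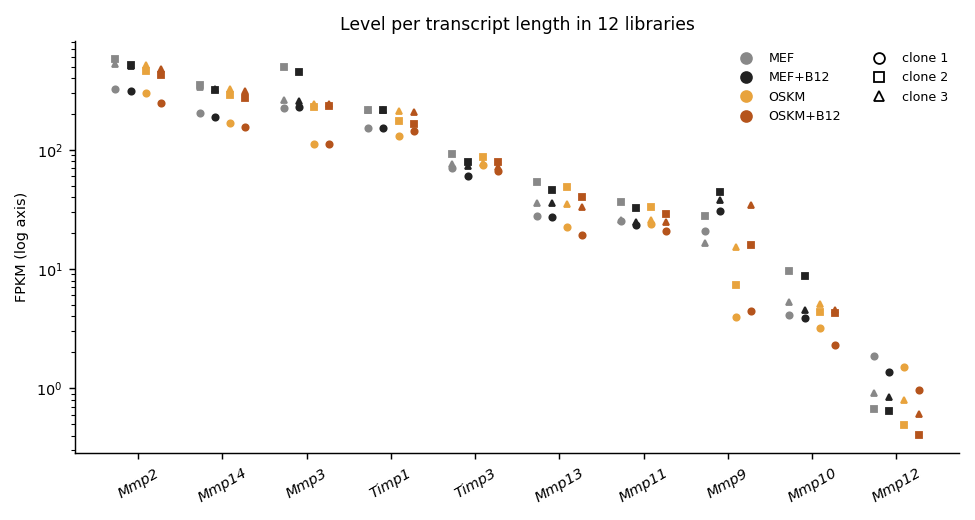
FPKM of each member (log axis) in the 12 libraries, with genes ordered by their median, colours for the 4 groups and symbols for the 3 clones. Mmp2 sits at the top with a median of 468 FPKM and Mmp12 at the bottom with 0.817 FPKM.

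The 8 proteases together had several times the FPKM of the 2 inhibitors, a ratio that depends on the exon lengths used. Taking clones 1, 2 and 3 in turn, the ratio of their summed FPKM was 3.74, 5.05 and 4.13 for MEF, against 3.09, 4.07 and 4.04 for OSKM. With B12 added it was 3.81, 4.80 and 4.12 in uninduced cells and 2.71, 4.18 and 4.04 in induced cells. The ratio was lower in the induced library in 6 of 6 pairs, by the least in clone 3. It includes Mmp3 and is given with no test.

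Of the members, 4 lie together on chromosome 9 of GRCm38, in a stretch of 427 kb from 7272514 to 7699585 whose 9 coding genes are all MMPs. These are Mmp13 (ENSMUSG00000050578, 7272514 to 7283331), Mmp12 (ENSMUSG00000049723, 7344381 to 7369499), Mmp3 (ENSMUSG00000043613, 7445822 to 7455975) and Mmp10 (ENSMUSG00000047562, 7502352 to 7510240), all on the plus strand. They differed in level although they are neighbours, with 357373 counts of Mmp3 over the 12 libraries, 73118 of Mmp13, 6607 of Mmp10 and 5200 of Mmp12. Mmp1b, Mmp8, Mmp27 and Mmp7, other genes of the stretch, had 790, 1365, 3741 and 176 counts, and Mmp20, the protease of tooth enamel, had 0 counts in all 12 libraries. Of the 31-base words of Mmp3, 14.6% also occur in other genes, chiefly Mmp10, and 11.9% of those of Mmp10 occur elsewhere, chiefly in Mmp3, so the counts of this pair are uncertain by the way shared reads were assigned. The share was at most 4.24% for the other 8 members.

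Promoters are shown for these 4 genes because they hold a motif that the other members with a window lacked. TGACTCA, or TGAGTCA on the other strand, is the classical binding motif of AP-1, a factor made of Fos and Jun proteins through which growth factors and cytokines induce MMPs. RefSeq windows on GRCm38.p6 were held for 8 members, all but Mmp2 and Mmp9, and the 250 bases before each start were searched on both strands. The AP-1 motif was found in a window of 4 of the 8, against 1395 of 27025 genes (4.46% of all 32851 windows). TATAAA or its reverse complement was found in Mmp3, Mmp10 and Mmp13, against 3872 of 27025 genes (12.4% of all windows). Both motifs were found in the same window in these 3 members and in 233 of 27025 genes (0.721% of all windows). Mmp11, Mmp14, Timp1 and Timp3 had neither. The first base of the AP-1 motif lay 46 bases before the start in Mmp3, 63 in Mmp10, 35 in Mmp13 and 44 in Mmp12, where it belonged to the second of 2 starts, while the window of the first start had none. The 120 bases before each start follow, all on the plus strand, with both motifs in capitals. A match is a description of the letters and not a measurement of binding.
Mmp3, chr9:7445702-7445821: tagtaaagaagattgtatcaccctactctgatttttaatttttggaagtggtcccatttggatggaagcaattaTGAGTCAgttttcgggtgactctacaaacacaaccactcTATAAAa
Mmp10, chr9:7502222-7502341: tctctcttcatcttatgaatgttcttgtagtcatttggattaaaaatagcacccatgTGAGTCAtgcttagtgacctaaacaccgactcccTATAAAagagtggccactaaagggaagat
Mmp13, chr9:7272394-7272513: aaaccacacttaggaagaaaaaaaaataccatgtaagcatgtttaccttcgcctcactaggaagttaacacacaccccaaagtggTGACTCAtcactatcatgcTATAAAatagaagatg
Mmp12, chr9:7347254-7347373: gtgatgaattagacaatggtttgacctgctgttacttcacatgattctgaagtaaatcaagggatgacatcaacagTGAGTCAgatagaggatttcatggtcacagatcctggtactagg

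The other members are spread over the genome. Mmp2 (ENSMUSG00000031740) lies on chromosome 8 from 92827291 to 92853420, Mmp9 (ENSMUSG00000017737) on chromosome 2 from 164940780 to 164955850, Mmp11 (ENSMUSG00000000901) on chromosome 10 from 75923222 to 75936496 and Mmp14 (ENSMUSG00000000957) on chromosome 14 from 54431612 to 54445364. Timp1 (ENSMUSG00000001131, chromosome X, 20870166 to 20874735) lies inside Syn1 and Timp3 (ENSMUSG00000020044, chromosome 10, 86300372 to 86349506) inside Syn3, each on the strand opposite to its host. The exons of Timp3 overlap those of Syn3, and the strand-specific counting keeps the pair apart.

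Induction was compared first, averaged over cells without and with B12. Of the 9 members tested, 7 fell and 0 rose at an adjusted p under 0.05 in the blocked fit, against 9.73% of all 19174 genes in either direction and 5.26% lower. The members that fell were Mmp2, Mmp9, Mmp10, Mmp12, Mmp13, Mmp14 and Timp1. The ratio of induced to uninduced cells was 0.367 for Mmp9 and 0.677 to 0.882 for the other 6. Of the 9, the same 7 were lower in the induced library in 6 of 6 pairs, against 8.26% of all genes. As a description, the median log2 difference of the 10 members, Mmp3 included, was -0.21, and that of all genes was -0.00. The count of members past the threshold depended on the clones, as did that over all genes. Without clone 1 (that is, within clones 2 and 3, which share a title year) 0 of 9 members and 10 of 19102 genes passed. Without clone 2, 0 of 9 members and 3 of 19314 genes passed, and without clone 3, 8 of 9 members and 3056 of 19231 genes. Without the OSKM library of clone 1, Mmp12 alone of the 9 passed, with 771 of 19499 genes.

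**Figure D2:**
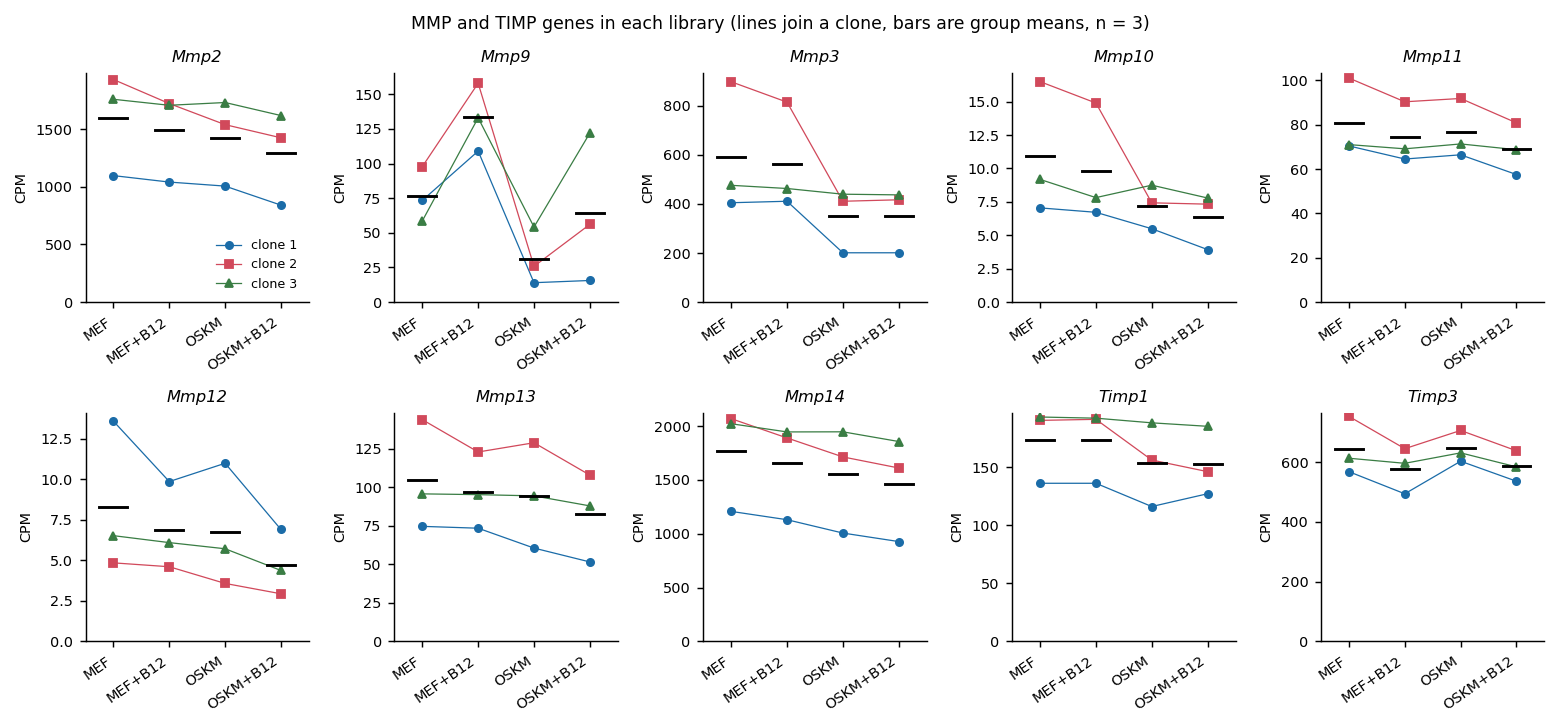
CPM of each member in the 12 libraries, with 1 panel a gene, the 4 groups on the x axis, lines joining the libraries of a clone and bars at the group means (n = 3). Clone 1 is lowest in all 4 groups for 8 members and highest for Mmp12, and the levels of clone 3 move least with induction.

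The gelatinases fell by very different amounts. In clones 1, 2 and 3, Mmp9 was at 73.4, 97.8 and 58.6 CPM for MEF and at 14.0, 25.8 and 54.2 CPM for OSKM. With B12 it was 109, 158 and 133 CPM in uninduced cells and 15.6, 56.1 and 122 CPM in induced cells. Clones 1 and 2 dropped to a fraction of their level while clone 3 was nearly level, and the groups without B12 did not overlap, as was so for 9.09% of all genes, whereas those with B12 did. The group means were 76.6 ± 19.8 CPM in MEF, 133 ± 24.3 CPM in MEF+B12, 31.3 ± 20.7 CPM in OSKM and 64.6 ± 53.7 CPM in OSKM+B12 (SD, n = 3). The averaged log2 difference was -1.45 ± 0.34 (SE, adjusted p = 0.0310), a ratio of 0.367. Mmp2 was 1097, 1930.5 and 1759 CPM in MEF and 1006, 1539 and 1731 CPM in OSKM, with 1041, 1722 and 1707 CPM in MEF+B12 and 841, 1425 and 1618 CPM in OSKM+B12. It was lower in every induced library than in its uninduced partner, though the groups overlapped widely, and fell by 0.19 ± 0.05 on the log2 scale (adjusted p = 0.0383).

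Among the stromelysins, Mmp3 and Mmp10 were lower after induction in the same clones. Mmp3 was 405, 898 and 476 CPM in MEF and 201, 411 and 439.8 CPM in OSKM, and with B12 it was 411, 815 and 463 CPM in uninduced and 201, 417 and 437 CPM in induced cells. Its log2 difference, which helped to choose the set and has no test, was -0.72 ± 0.14, and -1.02, -1.05 and -0.10 in clones 1, 2 and 3. Mmp10 was 7.05, 16.5 and 9.18 CPM in MEF, 5.49, 7.43 and 8.75 CPM in OSKM, 6.72, 14.9 and 7.82 CPM in MEF+B12 and 3.93, 7.33 and 7.79 CPM in OSKM+B12. The groups overlapped, clone 2 dropped most, and Mmp10 fell by 0.56 ± 0.15 (adjusted p = 0.0379). The part of their shared sequence in this likeness was not tested. Mmp11, which unlike most MMPs is secreted in its active form, had 70.4, 101 and 71.0 CPM in MEF and 66.4, 91.8 and 71.3 CPM in OSKM, and with B12 64.5, 90.3 and 69.1 CPM in uninduced and 57.5, 80.8 and 68.7 CPM in induced cells. The groups overlapped, and its difference of -0.09 ± 0.04 did not pass (adjusted p = 0.144).

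Mmp12 fell with induction by 0.43 ± 0.07 on the log2 scale (adjusted p = 0.0181), with a difference in each of the 3 clones. It was 13.6, 4.85 and 6.53 CPM in MEF and 11.0, 3.58 and 5.72 CPM in OSKM, and with B12 9.87, 4.61 and 6.10 CPM in uninduced and 6.91, 2.94 and 4.38 CPM in induced cells. The groups overlapped, with clone 1 above the others, and the induced library was lower in 6 of 6 pairs, by -0.41, -0.54 and -0.33 in clones 1, 2 and 3. The group means were 8.31 ± 4.62 CPM in MEF, 6.86 ± 2.71 CPM in MEF+B12, 6.75 ± 3.80 CPM in OSKM and 4.74 ± 2.01 CPM in OSKM+B12 (SD, n = 3), so the spread between clones was larger than the shifts. Without the OSKM library of clone 1 the difference was -0.46 ± 0.08 (adjusted p = 0.0296).

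The collagenase, the membrane-type protease and Timp1 had small falls. Mmp13 was 74.7, 144 and 95.8 CPM in MEF and 60.6, 129 and 94.5 CPM in OSKM, with 73.5, 123 and 95.3 CPM in MEF+B12 and 51.6, 108 and 88.0 CPM in OSKM+B12. It fell by 0.22 ± 0.06 (adjusted p = 0.0395), with the lowest values in clone 1. Mmp14 was 1207 and 2068 CPM in clones 1 and 2 of MEF, with clone 3 between them, 1006, 1713 and 1946 CPM in OSKM, 1129.8, 1889 and 1945 CPM in MEF+B12 and 927, 1610.2 and 1856 CPM in OSKM+B12. It fell by 0.20 ± 0.04 (adjusted p = 0.0270), and the induced library was lower in 6 of 6 pairs. Timp1 was 136, 190.1 and 193 CPM in MEF and 116, 156 and 188 CPM in OSKM, and 136, 191 and 192 CPM in MEF+B12 and 127, 146 and 185 CPM in OSKM+B12. The groups overlapped, and Timp1 fell by 0.18 ± 0.05 (adjusted p = 0.0425).

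Timp3 did not move with the others. It was 568, 753 and 613 CPM in MEF and 603, 706 and 631 CPM in OSKM, and with B12 494, 645 and 596 CPM in uninduced and 536, 638 and 584 CPM in induced cells. The difference of 0.02 ± 0.04 (adjusted p = 0.820) was higher in 3 of 6 pairs and lower in 3 of 6.

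**Figure D3:**
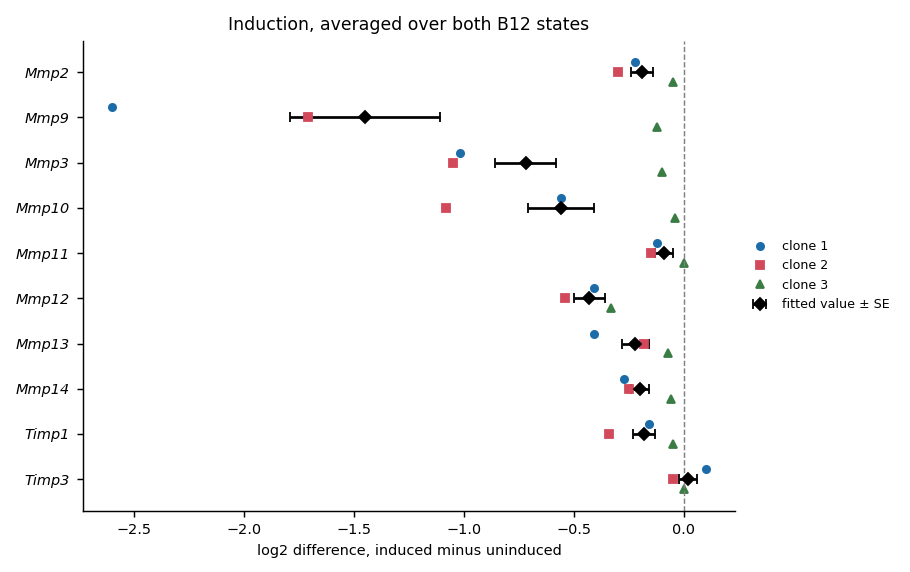
Log2 difference between induced and uninduced cells for each member, averaged over both B12 states, with the fitted value ± SE in black and the value of each clone in colour. In clones 1 and 2 Mmp9 reaches -2.60 and -1.71 and Mmp3 -1.02 and -1.05, while the values of clone 3 lie near 0 except for Mmp12 at -0.33.

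In each B12 state alone the falls had the same sign but did not pass. Without B12, 0 of 9 members passed, against 0.0730% of all genes, and 6 of 9 had an unadjusted p under 0.05, against 19.0%. With B12, 0 of 9 passed, against 0.104%, and 7 of 9 had an unadjusted p under 0.05, against 14.9%. DESeq2 called 1 of 9 in each state, Mmp14 without B12 and Mmp12 with B12.

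The clones answered induction to different extents, and 2 of the 9 members other than Mmp3 showed it past the threshold, against 2.15% of all genes. These were Mmp9 (adjusted p = 0.0112) and Mmp10 (adjusted p = 0.0189). The averaged log2 differences of Mmp9 were -2.60, -1.71 and -0.12 in clones 1, 2 and 3, and those of Mmp10 were -0.56, -1.08 and -0.04. All 10 members had their smallest absolute difference in clone 3, the clone with the least Pou5f1, and the median absolute difference of the members was 0.34, 0.32 and 0.06 in clones 1, 2 and 3. Without clone 3, no gene of 19231 passed, members included. Without the OSKM library of clone 1, 838 of 19499 genes passed.

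Markers of other cell types moved with induction too. Of the 11 fibroblast markers, 4 fell (Col1a1, Col1a2, Pdgfra and Pdgfrb) and 0 rose, against 5.26% of all genes lower. Their sum was 123075 to 149381 CPM in MEF and 94223 to 123399 CPM in OSKM, with clone 3 highest among the induced libraries. Endothelial markers summed to 43.4 to 48.6 CPM in MEF and to 146, 126 and 54.7 CPM in OSKM for clones 1, 2 and 3. Most of this sum was Tek, at 34.2 to 139 CPM over all libraries, while Cdh5 was at most 3.00 CPM. Of the 4 endothelial markers tested, Tek (1.26 ± 0.21) and Cdh5 (1.22 ± 0.24) rose. Kdr (0.01 ± 0.10) and Vwf (-0.11 ± 0.14) did not pass, and Pecam1 and Emcn stayed under 1 CPM in every library. Of the 7 chondrocyte and osteoblast markers tested, 2 rose and 1 fell, and their median was -0.11. The cartilage collagen gene Col2a1 rose by 1.68 ± 0.29 and Bglap, at most 0.611 CPM, by 2.30 ± 0.58, while Sox9 fell (-0.18 ± 0.05). Epithelial markers summed to 1.06 to 1.78 CPM in MEF and to 11.4, 8.19 and 1.28 CPM in OSKM for clones 1, 2 and 3. In whole cultures, fewer cells of a type and less RNA per cell cannot be told apart, and the part of these shifts in the falls of the members was not tested.

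B12 was then compared, averaged over uninduced and induced cells. Of the 9 members tested, 0 passed, against 3.84% of all genes (3.46% higher), while 5 of 9 had an unadjusted p under 0.05, against 15.5%. Of the 9, Mmp2, Mmp10, Mmp11, Mmp13, Mmp14 and Timp3 were lower in 6 of 6 pairs, against 7.64% of all genes. Mmp9 was higher in 6 of 6, against 8.0%. Mmp12 was also lower in 6 of 6, but was chosen by its fall with B12 and is not counted. As a description, the median log2 difference of the 10 members, Mmp12 included, was -0.13, and that of all genes was -0.01. The 11 fibroblast markers had a median of -0.11, with all 11 negative and 0 past the threshold, and the part of that shift in the members' values was not tested.

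Mmp12, whose fall with B12 helped to choose the set, is described without a test. From the levels given above, its ratio with to without B12 ranged from 0.630 to 0.951 over the 6 pairs. The averaged log2 difference was -0.34 ± 0.07, and -0.56, -0.18 and -0.24 in clones 1, 2 and 3. It was -0.46 ± 0.11 in induced and -0.22 ± 0.10 in uninduced cells, a difference between the states of -0.24 ± 0.15. Without clone 1 the average was -0.21 ± 0.08 and the value in uninduced cells -0.08 ± 0.11. Macrophage markers moved the other way. All 11 rose with B12 past the threshold, against 3.46% of all genes, and their sum went from 1273 to 2464 CPM in MEF to 1929 to 3268 CPM in MEF+B12, and from 1305 to 2275 CPM in OSKM to 2004 to 2652 CPM in OSKM+B12.

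Mmp9 showed the opposite sign to Mmp12. Its averaged log2 difference with B12 was 0.84 ± 0.33 (adjusted p = 0.234), a ratio of 1.79, and 0.36, 0.90 and 1.18 in clones 1, 2 and 3. The MEF and MEF+B12 groups did not overlap for this gene, at 58.6 to 97.8 and 109 to 158 CPM, as was so for 9.39% of all genes. The difference there was 0.74 ± 0.45 (adjusted p = 0.663), and it was 0.94 ± 0.47 in induced cells (adjusted p = 0.547). In a fit to the 6 uninduced libraries alone, Mmp9 was the 1 member of 9 that passed (0.82, adjusted p = 0.00316), and 845 of 18446 genes passed there, against 264 of 19174 in the fit to all libraries.

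The smaller differences with B12 were negative for most members. Timp3 was lower by -0.15 ± 0.04 (adjusted p = 0.0734) and Mmp11 by -0.13 ± 0.04 (adjusted p = 0.0979), each in 6 of 6 pairs. Mmp2 (-0.13 ± 0.05), Mmp13 (-0.14 ± 0.06), Mmp10 (-0.19 ± 0.14) and Mmp14 (-0.09 ± 0.04) were also lower in 6 of 6 pairs. Mmp3 and Timp1 were near level, at -0.03 ± 0.14 and 0.00 ± 0.05, and each was higher in 3 of 6 pairs. DESeq2 called Timp3 alone.

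**Figure D4:**
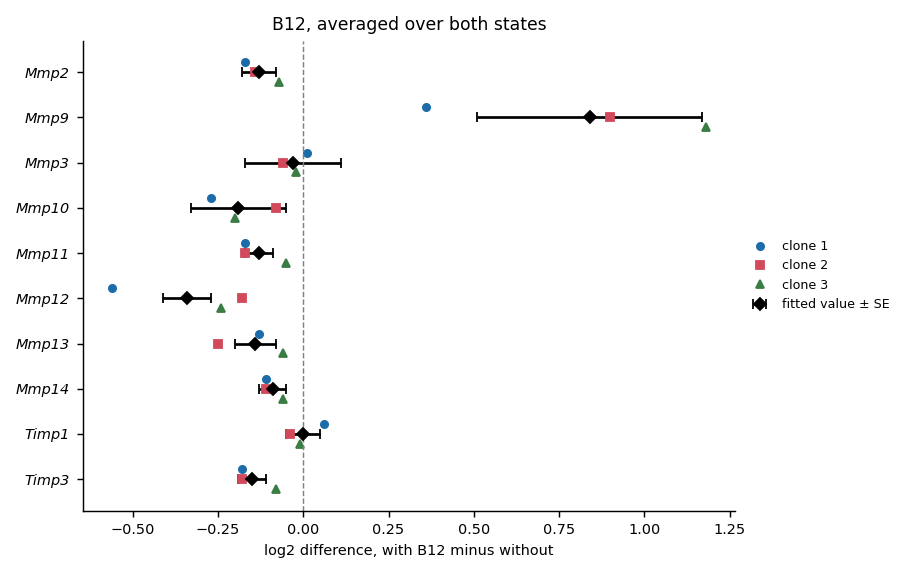
Log2 difference between cells with and without B12 for each member, averaged over both states, with the fitted value ± SE in black and the value of each clone in colour. Mmp9 is the one member well above 0 (0.84 ± 0.33), Mmp12 lies lowest (-0.34 ± 0.07) and the others sit between -0.19 and 0.00.

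Within each state and for the difference between states, no member passed. In OSKM, 0 of 9 passed, against 1.06% of all genes, with 4 of 9 at an unadjusted p under 0.05, against 9.82%. In MEF, 0 of 9 passed, against 1.38%, with 1 of 9 at an unadjusted p under 0.05, against 10.3%. The interaction gave 0 of 10 members, Mmp12 included, and 0% of all genes, and at an unadjusted p under 0.05 it gave 0 of 10 members against 1.42%. DESeq2 also gave 0 of 9 in OSKM, 0 of 9 in MEF and 0 of 10 for the interaction.

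The level of 9 of the 10 members differed between clones past the threshold, against 37.8% of all genes. A clone is 1 embryo, so the sex of the embryo cannot be told apart from other differences between clones. Mmp9 was the exception (adjusted p = 0.0930). Clone 1 was lowest in all 4 groups for 8 members, namely Mmp2, Mmp3, Mmp10, Mmp11, Mmp13, Mmp14, Timp1 and Timp3. Mmp12 was instead highest in clone 1 and lowest in clone 2 in all 4 groups, with means of 10.3, 4.0 and 5.68 CPM over the libraries of clones 1, 2 and 3 (adjusted p = 7.83e-06). Mmp14 had the smallest adjusted p, 3.76e-06, with means of 1067, 1819.9 and 1942 CPM. In MEF the highest clone was 1.33 times the lowest for Timp3 and 2.79 times for Mmp12. Without clone 1, 3 of 10 members and 1315 of 19102 genes differed between clones 2 and 3. The macrophage sum was likewise highest in clone 1 in all 4 groups, at 2464 CPM in MEF against 1687 and 1273 CPM in clones 2 and 3, and its part in the order of Mmp12 was not tested.

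Once each clone's mean was removed, most members followed one another over the 12 libraries. Pearson's r of log2 CPM was 0.96 between Mmp2 and Mmp14, 0.91 between Mmp3 and Mmp10 and 0.91 between Mmp2 and Mmp12. It was 0.86 between Mmp3 and Mmp9 but 0.39 between Mmp9 and Mmp12. Timp3 had r of -0.47 to Mmp9 and -0.08 to Mmp3, but 0.46 to Mmp12 and 0.64 to Mmp11. These values are descriptions, since the 12 points share clones, treatments and library depth. Among 11933 genes with a mean log2 CPM of at least 1, the 5 most like Mmp3 were Enc1 (0.997), Gas6 (0.997), Slc38a10 (0.996), Angptl4 (0.995) and Tgm2 (0.993). The 5 most like Mmp12 were Mamdc2 (0.966), Fhl1 (0.953), Myl9 (0.951), Igfbp7 (0.948) and Tpm2 (0.946), of which Myl9 and Tpm2 encode parts of the contractile apparatus.

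With each clone's mean removed, Mmp9 followed osteoclast genes, which were singled out after their values were seen. Osteoclasts are the bone-resorbing relatives of macrophages, and Mmp9 is among their secreted proteases. Acp5, which encodes their acid phosphatase, was 20.1, 33 and 27.8 CPM in MEF, 27.3, 50.5 and 52.6 CPM in MEF+B12, 6.47, 17.3 and 23.4 CPM in OSKM and 6.16, 22.3 and 41.3 CPM in OSKM+B12. It was lowest in the induced libraries of clone 1, as Mmp9 was, and its r with Mmp9 over the clone-centred libraries was 0.98. Dcstamp, needed for osteoclast precursors to fuse, was at most 4.24 CPM and had r of 0.96. Not all of the list shared the order of clones or the size of the fall. Tnfrsf11a (r of 0.90) was highest in clone 1 in MEF, MEF+B12 and OSKM, with 6.54, 5.31 and 5.9 CPM in OSKM. Ctsk (r of 0.95) fell by 0.22 ± 0.05 with induction, against 1.45 ± 0.34 for Mmp9. With induction, 5 of the 5 osteoclast markers tested fell, against 5.26% of all genes, and with B12 2 of 5 rose (Dcstamp and Tnfrsf11a), against 3.46%. Of the 11 macrophage markers, 2 fell with induction, Csf1r (-0.31 ± 0.08) and Adgre1 (-0.27 ± 0.07), and 1 rose, Itgam (0.37 ± 0.10). Calcr, the calcitonin receptor of mature osteoclasts, was at most 0.205 CPM in any library and had too few counts to be tested. Its r of 0.73 with Mmp9 rests on values near 0. The 11 macrophage markers had r with Mmp9 from -0.12 for Itgam to 0.80 for Adgre1 and 0.86 for Cd14, and the r of Mmp9 with the log2 macrophage sum was 0.65, against -0.28 for Mmp12 and -0.80 for Timp3. The part of such cells in the level of Mmp9 was not tested.

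**Figure D5:**
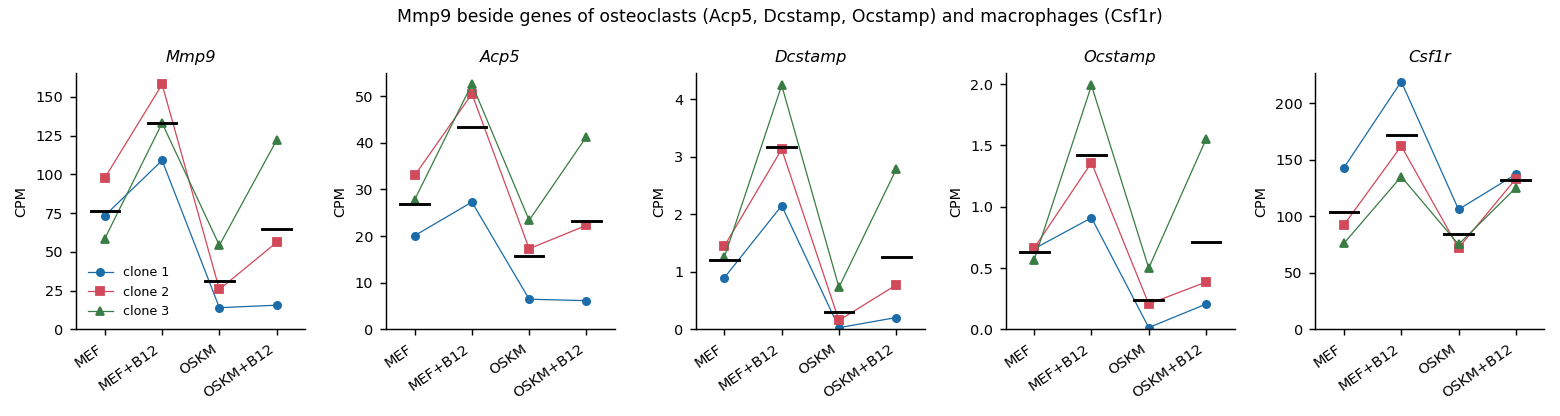
CPM of Mmp9 beside the osteoclast genes Acp5, Dcstamp and Ocstamp and the macrophage gene Csf1r in the 12 libraries, with lines joining the libraries of a clone and bars at the group means (n = 3). Mmp9 and Acp5 are lowest in the induced libraries of clone 1 (Mmp9 14.0 and 15.6 CPM). Csf1r there is at 106 and 137 CPM, against 143 and 219 CPM in the uninduced libraries of clone 1. The osteoclast genes Ctsk, Calcr and Tnfrsf11a are not shown.

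Related genes were counted from fixed lists. Of 13 other MMPs and TIMPs tested, 4 fell with induction and 1 rose. Those that fell were Mmp8 (-0.60 ± 0.17), Mmp19 (-0.36 ± 0.08), Mmp23 (-0.23 ± 0.05) and Mmp16 (-0.16 ± 0.04), against 5.26% of all genes lower. Mmp28, an epithelial protease also called epilysin, was the 1 that rose, by 1.33 ± 0.26 (adjusted p = 0.0212). Their median was -0.22, close to the -0.21 of the members with Mmp3 included. With B12, 0 of the 13 passed, against 3.84% of all genes.

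Of 17 genes that activate MMPs or act beside them at the cell surface, 7 fell with induction and 0 rose. Over all genes 5.26% were lower. Among these were Plau (-0.45 ± 0.08), the urokinase that makes plasmin, Tfpi2 (-0.35 ± 0.09) and Pcsk5 (-0.26 ± 0.07), a proprotein convertase. With B12, 2 of the 17 rose and 0 fell, against 3.46% of all genes higher. Plau rose by 0.77 ± 0.08 (adjusted p = 0.000534) and its receptor gene Plaur by 0.22 ± 0.04 (adjusted p = 0.00895). The median of the list was -0.15 with induction and -0.07 with B12, against -0.00 and -0.01 over all genes.

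Among 26 ADAM and ADAMTS proteases, the relatives that shed membrane proteins and cut proteoglycans, 9 fell with induction and 0 rose. Over all genes 5.26% were lower. Adamts16 (-0.69 ± 0.12), Adam8 (-0.53 ± 0.10), Adamts15 (-0.39 ± 0.08) and Adamts1 (-0.30 ± 0.07) had the largest falls, and the median of the list was -0.15. With B12 1 of the 26 passed, against 3.84% of all genes. This was Adam8, a protease of myeloid cells, which rose by 0.95 ± 0.10 (adjusted p = 0.000566). Of 16 inducers of MMPs, 3 fell with induction and 0 rose, against 5.26% of all genes lower. These were Tgfb1 (-0.28 ± 0.06), Fosl2 (-0.26 ± 0.06) and Jun (-0.20 ± 0.04), and the last 2 encode parts of AP-1. The other AP-1 genes of the list did not pass. They were Fos (-0.24 ± 0.11), Fosl1 (-0.21 ± 0.15), Junb (-0.16 ± 0.07), Jund (-0.07 ± 0.04) and Fosb (0.34 ± 0.17). With B12 3 of the 16 rose and 0 fell, against 3.46% of all genes higher. The cytokine genes Osm (1.13 ± 0.21), Tnf (0.91 ± 0.12) and Tgfb1 (0.36 ± 0.06) rose, while Jun and Fosl2 were at 0.03 ± 0.04 and 0.03 ± 0.06. Osm and Tnf were low, at up to 2.95 and 7.07 CPM, and macrophages are a known source of both.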

How the data were processed

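Strand-specific poly(A) RNA libraries of 12 cultures, 4 groups of 3, were sequenced as read pairs by the authors and aligned to mm10 (GRCm38) with STAR, version 2.5.2 per the submitters' processing notes. The authors counted pairs with featureCounts, set to the reverse strand, and added up the flow cells of each library. The deposited table holds these counts, not normalised. How pairs that match several places were treated is not given in the sources used here. Symbols and coordinates (1-based) came from GENCODE M21 on GRCm38, which matched 55480 of 55573 identifiers, and promoters from RefSeq on GRCm38.p6.

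Counts were tested with edgeR 4.0.16 (quasi-likelihood F test, R 4.3.3) after TMM scaling and filterByExpr by group, which kept 19174 genes, and p-values were adjusted over all of them by Benjamini-Hochberg at 0.05. The model held clone plus group for the 12 libraries together. Clone differences in response came from a model that added the product of clone and induction. Adjusted p-values are from edgeR unless another tool is named, and ± after a log2 difference is its SE. The clone enters as a replicate block, since the labels give every clone, the culture of 1 embryo, 1 library in each group. As a check of this pairing, deviations from the group means correlated at 0.270 to 0.687 within clones (18 pairs) and at most 0.170 between them. The p-values rest on 3 embryos. CPM used TMM-scaled totals, log2 CPM a prior count of 2, and FPKM the union of exons. The counts carry no molecular identifiers, and the biological coefficient of variation in the blocked fit was 8.04%. The code was tested on simulated data first.

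The members, gene lists and tests were chosen with earlier results of these data known. The genes named are the 10 members, from each list up to 4 past the threshold with the largest absolute difference, and the 5 genes most like Mmp3 and Mmp12. A gene that this rule names is not reported here. Genes of the marker lists were named after their values were seen. Alternatives were DESeq2 1.42.0, scaling by its size factors or by library totals, leaving out the filter, at least 10 counts in every library, only the libraries compared, no block, and leaving out each clone or the OSKM library of clone 1.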

Additional observations from a re-analysis of the deposited data

Results flagged for a closer look

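The response to induction differed between clones for 2 members, by the F test of the difference itself in edgeR over 19174 genes. For Mmp9 the adjusted p was 0.0112, with log2 differences of -2.60, -1.71 and -0.12 in clones 1, 2 and 3. For Mmp10 it was 0.0189, with -0.56, -1.08 and -0.04. Mmp3 was selected on its induction values and is left out here. Without clone 3, 0 of 19231 genes passed. Clone 3 had the smallest absolute difference in each, and it was also the clone with 2.86 and 2.33 CPM of Pou5f1 in induced cells, against 18.5 to 20.7 CPM in the others. Groups of 3 libraries are too small for a check of these 2 genes for single outlying libraries. The OSKM library of clone 1 stood out in its pseudogenes. Without it 838 of 19499 genes passed, against 413 of 19174 with all libraries.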

How the results depend on the processing

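For induction averaged over both B12 states, the count of 7 of 9 members was also found with DESeq2, with DESeq2 size factors, with no filter and with at least 10 counts in every library, and was 5 with library totals. It was 0 with no replicate block, where the clone differences enter the error, 1 without the OSKM library of clone 1, and between 0 and 8 when each clone was left out. Induction without B12 gave 0, then 1 with DESeq2, 1 with no filter and 0 to 3 leaving out a clone. Induction with B12 gave 0, then 1 with DESeq2, 4 with no filter and 0 to 4 leaving out a clone. The B12 average gave 0, then 1 with DESeq2 and 2 with no filter. B12 in MEF gave 0, and 1 in the fit to only the libraries compared. B12 in OSKM and the interaction gave 0 under every alternative run. The number of members whose response differed between clones was counted here with Mmp3, which was chosen on its induction values, so it is a description. It was 3, and 0 to 5 leaving out a clone and 5 without the OSKM library of clone 1. The number whose level differed was 9, and 3 to 10 leaving out a clone. The block pairs the libraries of an embryo, and without this pairing 0 members passed in any comparison of treatments.

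Of 308 values of single members under the alternatives, 304 kept their direction. The 4 that reversed were near 0. Timp3 with induction was -0.03 to 0.06 leaving out a clone, and Timp1 with B12 was -0.0036 with no replicate block, -0.03 to 0.02 leaving out a clone and -0.01 without the OSKM library of clone 1. The sign of Mmp9 with induction held at -2.12 to -0.91, and that of Mmp12 at -0.47 to -0.37. Library totals shifted the median of all genes by up to 0.05 on the log2 scale. Calls over all genes moved more than 1.5 times in several comparisons. Averaged induction called 1865 genes, against 0 with no replicate block, 3 to 3056 leaving out a clone and 771 without the OSKM library of clone 1. Induction without B12 called 14, and 492 with DESeq2, and induction with B12 called 20, and 420 with DESeq2. The B12 average called 736, against 90 with no replicate block and 34 to 525 leaving out a clone.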
